A study of Caenorhabditis elegans with 6 samples.

Results

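The genes described here are the cuticle collagens of Caenorhabditis elegans that carry a col number or a classical body-shape name, with the adult-stage collagens col-7, col-19, col-62 and col-63 left out. The rule reads gene names and no measured value. It took every gene called col with a number, together with dpy-4, dpy-5, dpy-13, dpy-14, dpy-17, rol-6, rol-8, sqt-1, sqt-2, sqt-3 and lon-3. There were 166 of the 46245 genes listed, 155 of them col genes and 11 with a phenotype name. Of these, 163 are annotated as protein-coding and 3 (col-66, col-136 and col-182) as pseudogenes. One name that the rule takes, col-99, belongs to a transmembrane collagen that is not a part of the cuticle.

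RNA was sequenced from whole worms of 2 strains collected as late L4 larvae, with 3 libraries per strain. The temperature given for every library was 20 °C. The reference strain, DCL33, carries eat-2(ad465) and acs-20(tm3232). The second strain, DCL289, carries ptr-8(mkc18) in addition, so both strains share the eat-2 and acs-20 mutations and no library is wild type. eat-2 encodes a pharyngeal nicotinic receptor subunit whose loss slows feeding, acs-20 encodes an acyl-CoA synthetase that contributes to the surface barrier of the cuticle, and ptr-8 encodes a patched-related membrane protein. What the 3 alleles remove or alter, and whether replicates were separate cultures, is not given in the sources used here. The p-values given here therefore weigh the strain difference only against how far libraries of a strain differ. Part of that spread may be technical.

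The cuticle is an extracellular coat that the epidermis secretes anew before each molt, and most of it is collagen. Cuticle collagens are short chains with Gly-X-Y repeats that are hydroxylated on proline, trimerised, cut by a furin-type protease and then joined by tyrosine crosslinks. Different genes are transcribed at different times within each molting cycle and at different molts, so collagen transcript levels in a culture depend on how far its animals have come. In RNA from whole animals, fewer cells of a type cannot be told apart from less RNA per cell.

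Levels are given as scaled FPKM, the length- and depth-adjusted fragment numbers that the authors deposited, divided by 1 factor per library. Differences are given as log2 of the ptr-8 strain minus the reference strain, on a log2(scaled FPKM + 1) scale, which understates differences of genes with low levels. Values follow the order of replicates 1, 2 and 3. The targeted gene went with its label. ptr-8 stood at 23.9, 23.3 and 18.1 in the reference strain against 4.52, 5.12 and 5.71 in the ptr-8 strain (log2 difference -1.89, SE 0.15, limma adjusted p = 0.00551), with no overlap.

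Collagen transcripts were abundant. In these late L4 animals 27 of the 166 genes had a mean level of at least 1000, and 16 were at or above 1000 in every library. A test was possible for 122 genes, which reached a scaled FPKM of 1 in at least 3 libraries. Their mean levels ran from 1.73 to 3657, with a median of 342. Of the 44 untested genes none was above 1.56 in any library, and 8 were listed at 0 in all 6 (col-37, col-55, col-66, col-102, col-108, col-114, col-136 and col-185). The summed level of all 166 collagens was 70348, 76419 and 64997 in the reference strain against 70150, 77412 and 74192 in the ptr-8 strain. These sums overlap between the strains.

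None of the 122 tested collagens passed an adjusted p of 0.05 in limma's fit over 15204 genes, in which 2.41% of all genes did (0.355% higher and 2.06% lower in the ptr-8 strain). Their lowest adjusted p was 0.0594, for dpy-17. At an unadjusted p below 0.05, 33 collagens were higher in the ptr-8 strain, which is 27.0% of those tested against 8.82% of all genes. In the other direction 18 were lower, which is 14.8% against 11.8% of all genes. Both together made 51, or 41.8% against 20.6%. The 3 libraries of the ptr-8 strain lay above all 3 of the reference strain for 33 collagens, 27.0% against 13.5% of all genes. They lay below for 16, which is 13.1% against 14.2%. The share of collagens on the higher side was thus above that of all genes by either count, and the share on the lower side was near it. The lower share varied with the fit. It was 24.6% against 13.3% of all genes with the replicate number as a block (24.6% against 10.1% on the higher side), 29.5% against 13.4% without replicate 1 of the reference strain, and 18.03% against 11.1% without replicate 2 of the ptr-8 strain. Without replicate 1 of the ptr-8 strain it was 4.92% against 10.2%. The median difference over the 122 collagens was -0.080, and 0.0056 over all genes, with 54 collagens above 0 and 68 below. The split depended on the scaling. With values left as deposited, 89.2% of the collagens past an unadjusted p of 0.05 were on the higher side, in place of 64.7% here. The counts were then 33 higher, with 5.37% of all genes, and 4 lower, with 5.44%, and col-80, col-142 and col-179 passed an adjusted p of 0.05, which 1.6% of all genes did.

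**Figure D1:**
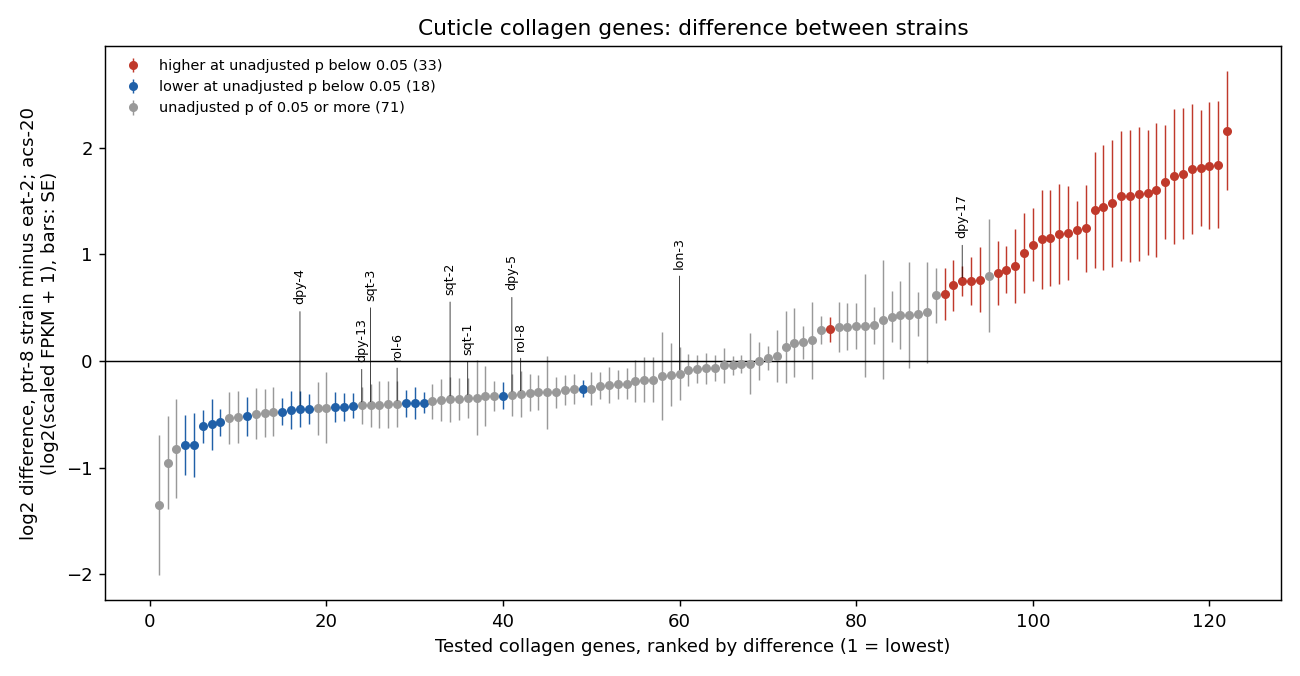
Log2 difference between strains (vertical axis, log2 of scaled FPKM + 1, bars show the SE) for the 122 tested collagen genes in order of size (horizontal axis). The 33 genes in red run from 0.30 to 2.16, the 18 in blue from -0.79 to -0.26, and the phenotype-named genes other than dpy-17 lie on the lower side, lon-3 closest to 0.

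Among collagens past an unadjusted p of 0.05, the differences on the higher side were also the larger ones. That cut leaves out differences with a wide spread, such as col-41 at -1.35, the lowest of any tested collagen. The 33 higher collagens had a median log2 difference of 1.24 with a range from 0.30 to 2.16, and adjusted p from 0.0594 to 0.241. Their summed level was 18050, 11385 and 5437 in the reference libraries and 25424, 22366 and 26308 in the ptr-8 libraries. The reference libraries differed more among themselves here than the ptr-8 libraries did. For the median gene of this group the highest reference library was 3.88 times the lowest, and the corresponding ratio within the ptr-8 strain was 1.27. The 18 lower collagens had a median of -0.45 with a range from -0.79 to -0.26, and adjusted p from 0.0868 to 0.240. Their sums were 13093, 14573 and 15184 in the reference strain against 10002, 12126 and 9908 in the ptr-8 strain, and both groups were picked by this same comparison, so their sums are a description. Within-strain ratios for this group were 1.20 and 1.25.

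Among the higher collagens, dpy-17 had the lowest p. DPY-17 is a collagen whose loss makes worms short and stout, and it is known to work with SQT-3 and to be processed by the metalloprotease DPY-31. Its transcript stood at 1.87, 1.79 and 1.93 in the reference strain against 3.23, 3.85 and 4.40 in the ptr-8 strain. The groups were apart, with means of 1.86 ± 0.0699 and 3.82 ± 0.586 (SD, n = 3 each; log2 difference 0.75, SE 0.14, limma adjusted p = 0.0594). This is a gene at a low level, and the deposited interval of its FPKM reached 48.5% to either side in 1 library. Unlike most of the group, it was nearly level among the reference libraries.

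The other members of lowest p on the higher side are numbered collagens for which little beyond the family is known. An exception is col-142, which is reported as a transcriptional target of the DBL-1 pathway, the TGF-beta-like signal that sets body size. It stood at 144.3, 150 and 75.4 in the reference strain against 265, 257 and 314 in the ptr-8 strain (log2 difference 1.23, SE 0.28, limma adjusted p = 0.0895). Every ptr-8 library was above every reference library. Its neighbours col-141 and col-143 on chromosome V were on the same side, with differences of 0.30 and 1.76, and col-141 is likewise a reported DBL-1 target. rol-6, another collagen reported as a DBL-1 target, was on the lower side. The reported targets were not examined as a set, so no common direction is read from these genes.

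The largest difference of any tested collagen was that of col-179 on the X chromosome. Its level was 150, 83.4 and 29.4 in the reference strain against 293, 299 and 391 in the ptr-8 strain. The means were 87.5 ± 60.3 and 328 ± 54.8 (SD, n = 3 each; log2 difference 2.16, SE 0.56, limma adjusted p = 0.118), or 3.74 times as high. The groups did not overlap, and replicate 3 of the reference strain was lowest by far. The adjoining gene col-178 gave 514, 302 and 82.9 against 719, 791 and 839, with the same library lowest.

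3 abundant collagens showed the same arrangement. col-80 was at 777, 442 and 159 in the reference strain against 1313, 1231 and 1475 in the ptr-8 strain (log2 difference 1.81, SE 0.55, limma adjusted p = 0.155). col-124 was at 1166, 554 and 249 against 1769, 1511 and 1975 (1.68, SE 0.53, adjusted p = 0.169). col-160 was at 858, 653 and 332 against 1255, 1156 and 1247 (1.09, SE 0.34, adjusted p = 0.163). In each, replicate 1 of the reference strain came closest to the ptr-8 libraries without reaching them, and replicate 3 was lowest.

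col-147 and col-149 varied less within the reference strain. col-147 stood at 435, 534 and 310 in the reference strain against 752, 596 and 768 in the ptr-8 strain (log2 difference 0.75, SE 0.22, limma adjusted p = 0.149). col-149 stood at 107, 150 and 84.1 against 172, 213 and 222 (0.86, SE 0.22, adjusted p = 0.122). In both genes replicate 2 was the highest reference library and still lay below all 3 ptr-8 libraries.

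The remaining 25 higher collagens were col-8, col-20, col-39, col-81, col-92, col-93, col-94, col-96, col-98, col-101, col-106, col-119, col-122, col-126, col-127, col-129, col-139, col-140, col-141, col-143, col-146, col-159, col-178, col-181 and col-184. They include some of the strongest collagen transcripts of the ptr-8 strain. col-93 stood at 1246, 896 and 393 in the reference strain against 1780, 1714 and 1916 in the ptr-8 strain. col-140 stood at 1335, 705 and 272 against 1788, 1606 and 1711. Both are named here after their values were seen, as are col-20, col-41, col-92, col-141, col-143 and col-178 elsewhere.

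**Figure D2:**
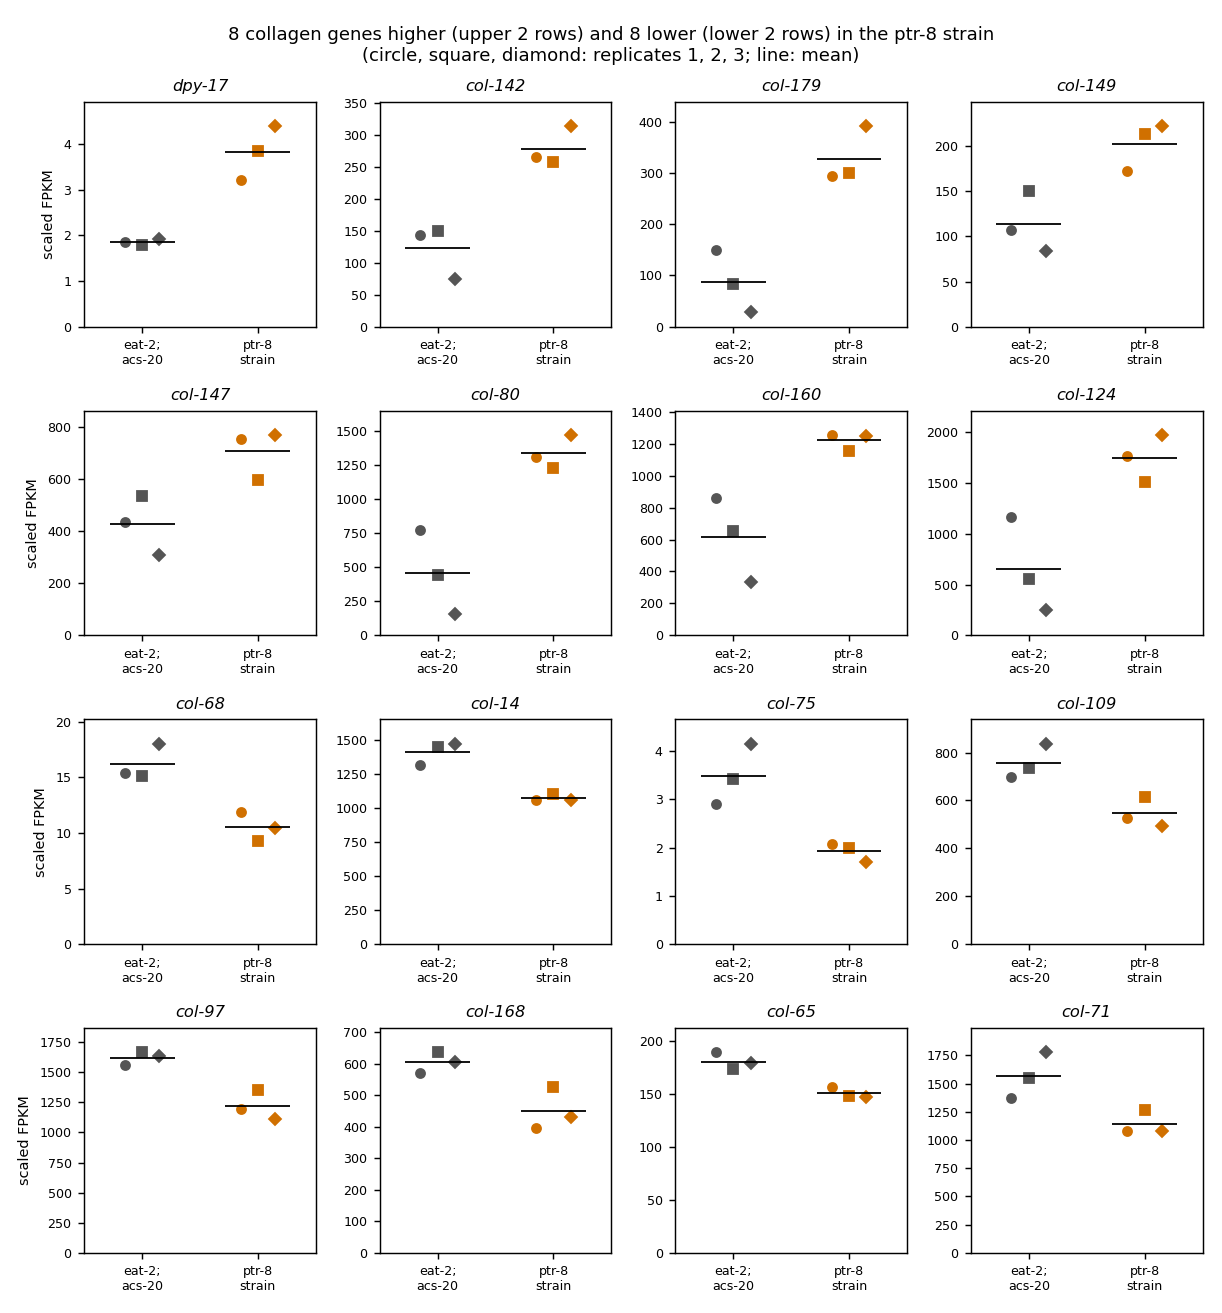
Scaled FPKM (vertical axes, each starting at 0) of the 8 collagens of lowest p on each side, in the 3 libraries of the reference strain (grey) and of the ptr-8 strain (orange), with lines at the means. In all 16 panels the strains do not overlap, and in col-179, col-80 and col-124 replicate 3 of the reference strain (diamond) lies farthest from the ptr-8 libraries, at 29.4, 159 and 249.

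On the lower side the differences were modest and the libraries of a strain lay close together. col-68 had the lowest p of these, at 15.4, 15.1 and 18.1 in the reference strain against 11.9, 9.29 and 10.5 in the ptr-8 strain (log2 difference -0.58, SE 0.13, limma adjusted p = 0.0868). col-75, a gene near the limit of testing, gave 2.91, 3.42 and 4.16 against 2.08, 2.00 and 1.70 (-0.61, adjusted p = 0.112). In both genes every ptr-8 library was below every reference library. col-65 gave 189, 173 and 179 against 156, 148 and 147, a small difference of -0.26 (SE 0.08, adjusted p = 0.162) that was clear of the spread within each strain because that spread was also small.

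The other lower collagens of lowest p were abundant transcripts. col-14 stood at 1319, 1447 and 1475 in the reference strain against 1062, 1105 and 1061 in the ptr-8 strain, which is 76.1% of the reference mean (log2 difference -0.39, SE 0.10, limma adjusted p = 0.112). col-97 stood at 1562, 1666 and 1635 against 1193, 1349 and 1108 (-0.42, SE 0.11, adjusted p = 0.132). col-71 stood at 1370, 1551 and 1778 against 1082, 1270 and 1080 (-0.45, SE 0.14, adjusted p = 0.166). Again no ptr-8 library reached the lowest reference library. col-109, at 697, 736 and 838 against 528, 616 and 493, and col-168, at 570, 636 and 605 against 396, 525 and 430, had the same form with differences of -0.47 and -0.43 (limma adjusted p = 0.128 and 0.156). The remaining 10 lower collagens were col-17, col-48, col-53, col-104, col-125, col-131, col-172, col-173, col-174 and dpy-4.

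The collagens with body-shape names were tested for 10 of 11 genes, and 9 of the 10 were lower in the ptr-8 strain, dpy-17 being the exception. None of the 9 had an adjusted p below 0.220, and only dpy-4 was free of overlap. With the adult collagen covariate described further on, 5 of the 9 (sqt-1, sqt-2, rol-6, rol-8 and lon-3) had a difference above 0. The loss or alteration of these genes gives short and stout (dpy), rolling (rol), squat (sqt) or long (lon) worms. dpy-4 stood at 2179, 2218 and 2568 in the reference strain against 1486, 2105 and 1554 in the ptr-8 strain, with means of 2322 ± 214 and 1715 ± 339 (SD, n = 3 each; log2 difference -0.45, limma adjusted p = 0.220). dpy-13 stood at 2298, 2899 and 2811 against 1827, 2413 and 1786 (-0.42, adjusted p = 0.244), and the ranges overlapped through replicate 2 of the ptr-8 strain. dpy-5, among the most abundant of all collagens, stood at 2411, 3426 and 3124 against 2006, 2805 and 2372 (-0.32, adjusted p = 0.400). Its ranges overlapped as well.

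The roller and squat genes gave a similar picture at a lower level. sqt-3, the partner of dpy-17, stood at 1004, 1503 and 1480 in the reference strain against 912, 1165 and 886 in the ptr-8 strain (log2 difference -0.41, limma adjusted p = 0.306), the opposite side from dpy-17. sqt-1 stood at 674, 1001 and 995 against 618, 783 and 673 (-0.35, adjusted p = 0.350), and sqt-2 at 637, 1007 and 1025 against 609, 708 and 721 (-0.36, adjusted p = 0.370). In each, replicate 1 of the reference strain was the low library of its strain and lay within the range of the ptr-8 libraries. rol-6, the collagen whose altered form is widely used as a roller marker, stood at 362, 565 and 603 against 334, 391 and 407 (-0.40, adjusted p = 0.335). rol-8 stood at 582, 876 and 926 against 536, 728 and 632 (-0.31, adjusted p = 0.449). lon-3, whose loss lengthens the body, differed least, at 226, 364 and 388 against 237, 338 and 311 (-0.12, adjusted p = 0.820). The low place of replicate 1 was common to these genes. It was the lowest reference library for 9 of the 10 phenotype-named genes tested, against 36.1% of all genes. dpy-14 was not tested, with levels of 0.884, 1.02 and 0.126 in the reference strain against 0.691, 0.263 and 0.634 in the ptr-8 strain.

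**Figure D3:**
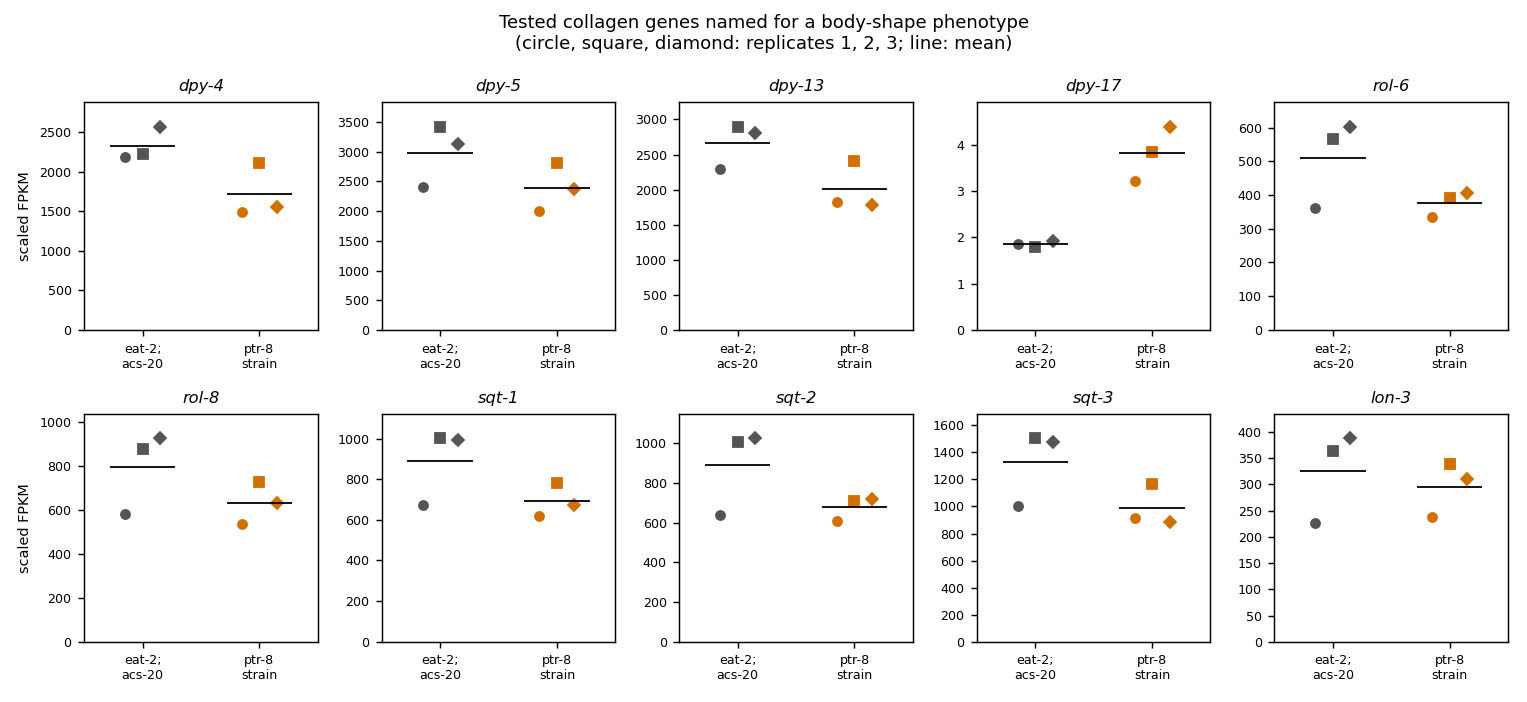
Scaled FPKM (vertical axes, each starting at 0) of the 10 tested collagens with body-shape names in the reference strain (grey) and the ptr-8 strain (orange), 3 libraries each, with lines at the means. Only dpy-4 (lower) and dpy-17 (higher) show strains that do not overlap, and replicate 1 of the reference strain (circle) is its lowest library in 9 of the 10 panels.

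The 6 most abundant collagens overlapped between the strains. col-73 led, at 3444, 4495 and 4483 in the reference strain against 2840, 3471 and 3207 in the ptr-8 strain (log2 difference -0.38, limma adjusted p = 0.264). dpy-5 and dpy-13 followed, then col-38 at 2380, 3094 and 2801 against 2038, 2427 and 2271 (-0.29, adjusted p = 0.317). The reference means were the higher ones in each. Next came col-3 and col-117, neighbours on chromosome IV whose starts lie 1839 bp apart. col-3 stood at 1929, 2775 and 2150 against 1646, 2481 and 1954, and col-117 at 0.987 to 0.993 of col-3 in every library, with a difference of -0.18 for each. That difference was -0.03 for either gene without replicate 2 of the reference strain and -0.33 without replicate 2 of the ptr-8 strain. Levels this close may mean that reads of the 2 genes were not told apart, which was not tested. The same holds for col-126 and col-127 on chromosome IV, with starts 1546 bp apart, which both lie among the 33 higher collagens and may be 1 measurement.

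Collagen genes lie in runs on the chromosomes, and neighbours often had the same sign. With gaps of up to 10000 bp, 50 of the genes fell into 21 runs, and 17 runs held at least 2 tested genes. In 9 of these all tested genes had a positive difference, in 4 a negative one, and in 4 both signs occurred. Runs of like sign include col-3 with col-117, col-126 with col-127, col-46 with col-47 and col-159 with col-160, whose reads may be shared. How often neighbouring genes in general had the same sign was not computed. The run of col-92, col-93 and col-94 on chromosome III gave differences of 0.83, 1.24 and 0.71, and the levels of col-92 were 940, 731 and 410 in the reference strain against 1227, 1152 and 1114 in the ptr-8 strain. A run on chromosome II shows the contrary case. There col-20 was higher by 1.80, with 527, 301 and 92.4 against 828, 729 and 1037, while col-17 and col-73 on its flanks were lower, at -0.59 and -0.38. By chromosome, the higher collagens numbered 10 of 27 tested on V, 8 of 34 on IV, 7 of 13 on III, 4 of 18 on II, 4 of 19 on X and 0 of 11 on I. The share of all genes of each chromosome was not computed, so these counts show no pattern particular to collagens. Of the tested collagens, 21 overlap an exon of another protein-coding gene. Since strand is not known to be kept, their reads and those of the partner cannot be told apart. The partners of col-179 (C34F6.11, 23.7 in the reference strain and 20.3 in the ptr-8 strain), of col-124 (qns-1, 36.2 and 37.03) and of col-142 (T15B7.14, 3.61 and 3.84) were at levels well below those of the collagens. By contrast, col-160 overlaps col-159 on the same strand, and col-159 had means of 483 in the reference strain and 774 in the ptr-8 strain. Both are among the higher collagens, and part of their reads may be shared.

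Most of the higher collagens shared the order of the reference libraries with the adult-stage collagens col-19, col-7 and col-62. col-19, col-7 and col-62 are switched on as larvae become adults, and they were left out of the rule. col-19 stood at 424, 216 and 74.6 in the reference strain against 739, 591 and 849 in the ptr-8 strain (log2 difference 1.91, limma adjusted p = 0.167). The summed level of all 3 markers was 720, 312 and 113 against 1168, 832 and 1191, and none was at 0. So the libraries differed in this stage measure within the reference strain as well as between strains. The order of reference libraries seen in the 3 markers, replicate 1 highest and replicate 3 lowest, was found in 45 of the 122 collagens. That is 36.9%, against 16.3% of all genes. It held for 25 of the 33 higher collagens and for 1 of the 18 lower. The 8 higher collagens without it include dpy-17, col-142, col-147 and col-149. Its share among all genes higher at an unadjusted p below 0.05 was not computed, and the order of the ptr-8 libraries was not compared. Replicate 3 was the lowest of all 6 libraries for 40.98% of the tested collagens and 17.5% of all genes. Among the 33, where the choice of genes already puts a reference library lowest in nearly all, it was replicate 3 in 30, with dpy-17, col-98 and col-141 as the exceptions.

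**Figure D4:**
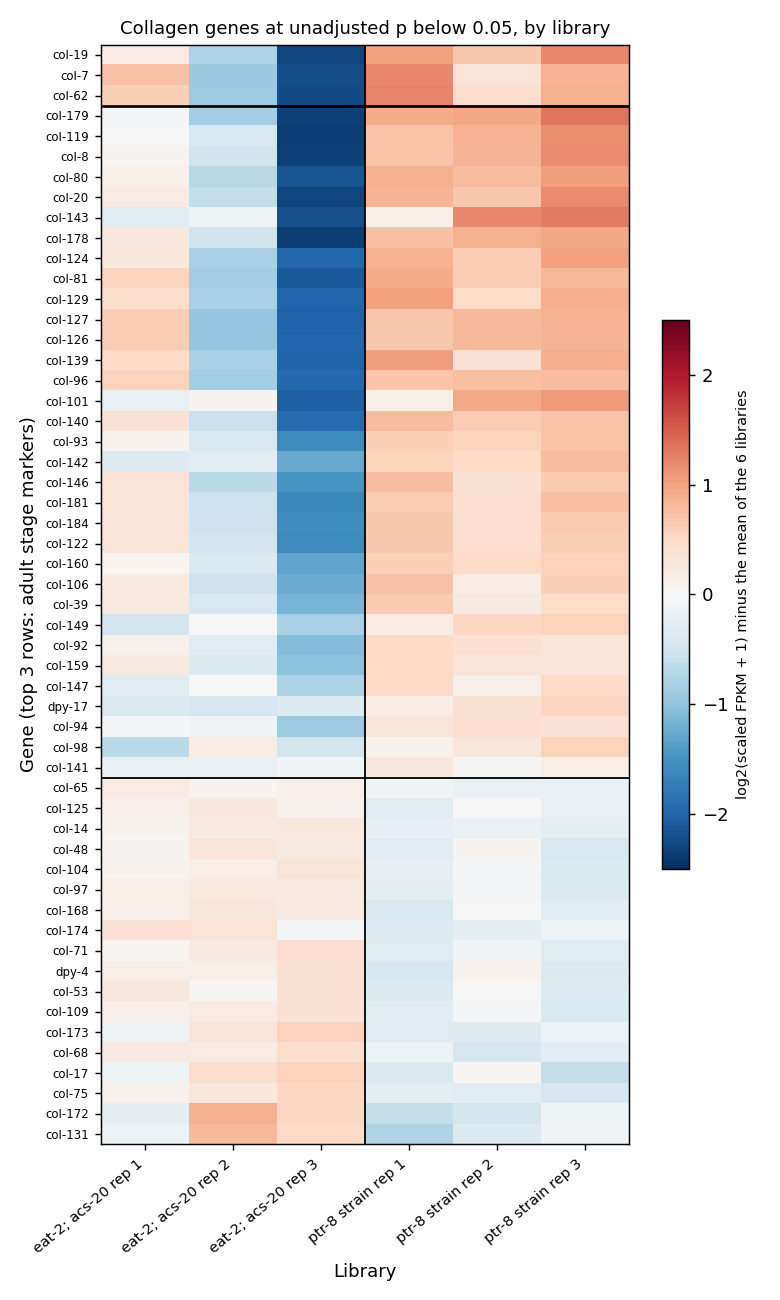
Level of each collagen with an unadjusted p below 0.05 (rows) in the 6 libraries (columns), as log2(scaled FPKM + 1) minus the mean of the libraries. Under the adult-stage markers (top 3 rows) come the 33 higher and the 18 lower collagens, and replicate 3 of the reference strain is the lowest library in 30 of the 33.

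With the mean log2 level of the 3 markers as a covariate in the fit, 2 collagens were higher at an unadjusted p below 0.05, 1.64% against 2.18% of all genes, and 10 were lower, 8.20% against 6.89%. The 2 were dpy-17, with a difference of 0.78 (limma adjusted p = 0.368), and col-179, with 0.77 (adjusted p = 0.519). The marker level goes partly with strain, at 7.70, 6.32 and 4.95 in the reference libraries and 8.33, 7.68 and 8.18 in the ptr-8 libraries. Replicate 1 of the reference strain lies just above replicate 2 of the ptr-8 strain, so the ranges overlap. A difference in stage and a difference due to the genotype cannot be told apart in these 6 libraries. Oocyte and germline markers also had higher values beside these collagens. All 6 had a positive difference, with a median of 0.81, and 4 of them an unadjusted p below 0.05 (8.82% of all genes on the higher side), but none passed adjustment, the lowest limma adjusted p being 0.112. Their summed level was 437 to 492 in the reference strain and 591 to 620 in the ptr-8 strain. Sperm markers, all 6 detected, had positive differences with a median of 0.47 and none past an unadjusted p of 0.05. They summed to 4418, 1990 and 1873 against 4730, 2222 and 3553, which overlap, with the reference libraries in the order of the adult collagens. Epidermal markers, 8 of 8 detected and rol-6 among them, had a median difference of -0.21 and none past an unadjusted p of 0.05. The 5 muscle markers had a median of 0.03 and the 5 neuron markers one of -0.01, with none past an unadjusted p of 0.05. Of 6 intestine markers 5 were found, with a median of -0.15, and 3 of these were past that level in both directions, ges-1 at 0.28, elt-7 at -0.25 and act-5 at -0.43. No marker of these lists was at 0, and their part in the result was not tested.

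Leaving out single libraries changed how many collagens stood apart. Without replicate 3 of the reference strain, 17 collagens were higher at an unadjusted p below 0.05, 13.9% against 5.09% of all genes, and the differences of col-179, col-80, col-124 and col-160 were 1.53, 1.19, 1.11 and 0.70, with dpy-17 at 0.76. The adult marker col-19 was then at 1.24. Without replicate 3 of the ptr-8 strain 7 were higher, 5.74% against 4.37%. Without replicate 1 of the reference strain, the one nearest the ptr-8 libraries in its adult collagens, 14 collagens passed an adjusted p of 0.05 in limma's fit. These were 11.5% of those tested, against 4.5% of all genes (1.87% higher and 2.63% lower). The 8 higher ones were col-81, col-96, col-124, col-126, col-127, col-129, col-146 and col-179. The 6 lower ones were col-41, col-54, col-79, col-90, col-172 and col-173, of which col-41 had the lowest difference of any collagen with all libraries in, -1.35, from 17.3, 67.9 and 114 in the reference strain against 20.9, 23.6 and 15.3 in the ptr-8 strain. col-41 thus separated replicates 2 and 3 of the reference strain from the other 4 libraries rather than the strains.

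**Figure D5:**
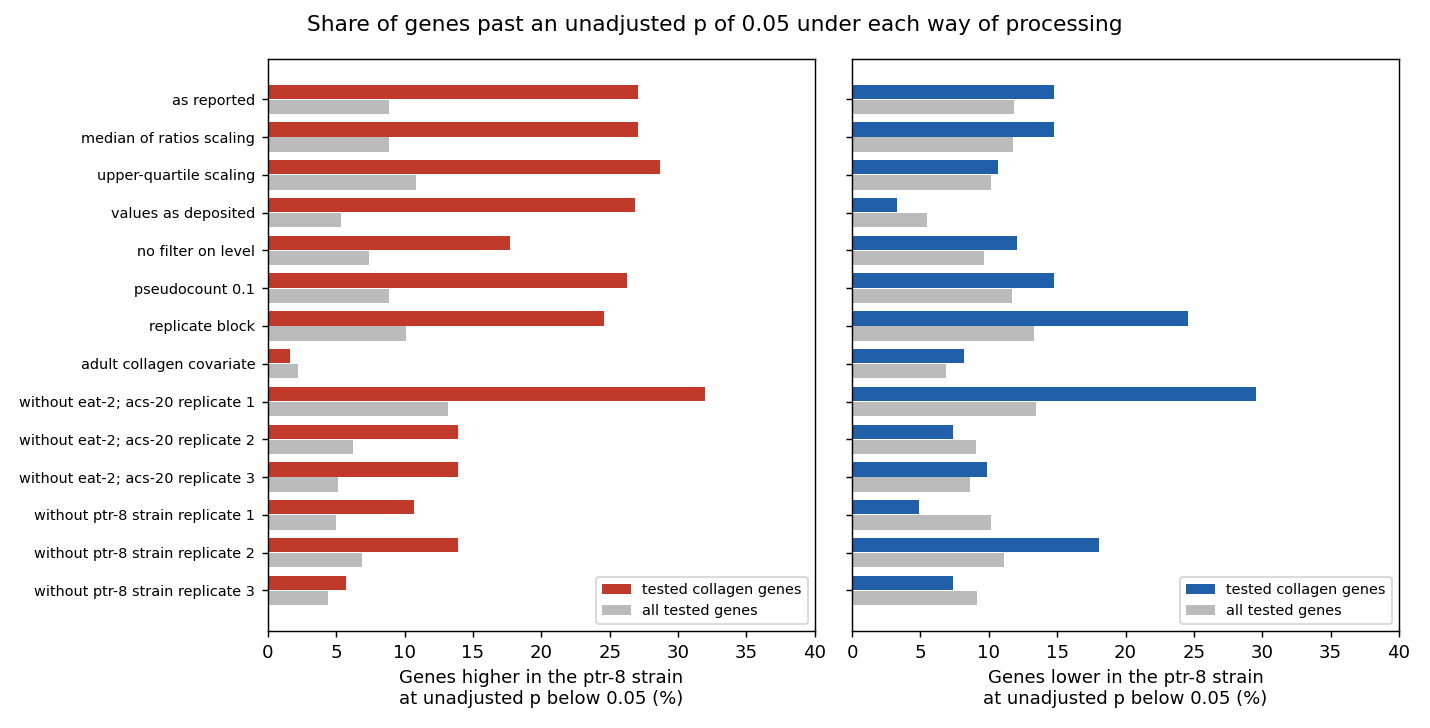
Share of tested collagens (colour) and of all tested genes (grey) that were higher (left) or lower (right) in the ptr-8 strain at an unadjusted p below 0.05, in percent, under each way of processing. On the higher side the collagens exceed all genes as reported (27.0% against 8.82%) and fall below them only with the adult collagen covariate (1.64% against 2.18%).

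4 collagens of this family have been linked to long life, and both strains carry eat-2, a long-lived background. col-120 was at 259, 250 and 196 in the reference strain against 289, 273 and 295 in the ptr-8 strain (log2 difference 0.29, limma adjusted p = 0.269), without overlap. col-10 was at 1231, 2231 and 1699 against 1058, 1505 and 1165 (-0.44, adjusted p = 0.362), and col-144 at 1510, 2199 and 1749 against 1227, 1715 and 1289 (-0.37, adjusted p = 0.346). col-13 was at 830, 639 and 449 against 966, 738 and 478 (0.17, adjusted p = 0.797). These 4 thus went to both sides, none past an unadjusted p of 0.05, and the last 3 overlapped.

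The enzymes that make and finish collagen gave no call. Of 21 tested genes for synthesis, crosslinking and processing, none passed an adjusted p of 0.05, 3 were lower and 1 was higher at an unadjusted p below 0.05 (11.8% and 8.82% of all genes), and the median difference was -0.16. phy-2, a prolyl 4-hydroxylase subunit, was at 67.2 ± 8.84 in the reference strain and 50.9 ± 4.11 in the ptr-8 strain (SD, n = 3 each; log2 difference -0.39, limma adjusted p = 0.175). pdi-6, a protein disulfide isomerase, was lower by a log2 difference of -0.42 and bli-5, a Kunitz-type protease inhibitor of the cuticle, by -0.38. The higher gene was mlt-7, a peroxidase for crosslinking, at 0.48. The 6 furrow collagens had a median of -0.12 with none past an unadjusted p of 0.05. The 13 tested molting genes had a median of -0.13, with qua-1, mlt-10 and mlt-8 lower at an unadjusted p below 0.05 (again beside 11.8% of all genes), and the 19 transcription factors of the epidermis and of molting a median of -0.08 with none. In the DBL-1 pathway, 2 of 12 tested genes, sma-4 and sma-6, were lower at that level (-0.32 and -0.37), against the same 11.8% of all genes. The 4 genes of basement membrane and other non-cuticle collagens (emb-9, let-2, cle-1 and col-99) had a median of -0.06. Of these, col-99 is also among the genes that the rule takes.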

How the data were processed

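The authors deposited 1 gene table per library with an FPKM, its lower and upper bound and a status word for each of 46245 genes, per the file headers. Per the submitters' processing notes, tools used include DESeq2, HTSeq, TopHat2 and FastQC 0.11.5, with no role given. Not given in the sources used here are settings, genome build, RNA selection and strandedness. FPKM values are not counts, so no count model was used. Each library was divided by a factor from trimmed means of log ratios (30% of ratios, 5% of levels), from 0.872 to 1.33.

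limma 3.58.1 in R 4.3.3 (intensity trend) was fitted to log2(scaled FPKM + 1) with strain as the only term, all 6 libraries, Benjamini-Hochberg adjustment over 15204 genes. These reached 1 scaled FPKM in 3 or more libraries and had a locus of at least 200 bp and no FAIL status (10 genes). The procedure was tested on simulated data with independent noise for each gene, which leaves out variation that many genes of a library share. Of the identifiers, 45990 matched the Ensembl 115 annotation of WBcel235, which gave biotypes and overlaps.

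Total read numbers are unknown. Relative depth, read from the deposited intervals of 5637 genes, was 1, 1.50 and 0.573 in the reference strain and 1.08, 1.29 and 0.957 in the ptr-8 strain, so that replicate 3 of the reference strain is the shallowest. Between 73.8% and 76.8% of the low implied fragment numbers lay within 0.1 of a whole number, too few to recover reads. The median half-width of a collagen's interval was 3.61% to 5.62%.

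The collagens and the gene lists were chosen with earlier results of these data known. Named collagens are those with phenotype names, the 8 of lowest p on each side (since none was called) and the 6 of highest mean level. Of the other lists up to 3 genes of lowest p qualified, and mlt-7 was named after its value was seen. Alternatives were scaling by upper quartiles or by medians of ratios, values as deposited, no filter on level, a pseudocount of 0.1, a replicate block, an adult collagen covariate (col-19, col-7, col-62) and each library left out.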

Additional observations from a re-analysis of the deposited data

How the results depend on the processing

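The median collagen difference of -0.080 stayed within the spread between libraries under every alternative (0.03 with values as deposited, -0.15 to -0.03 with 1 library left out). Calls over all genes, 367 as reported, were 244 with values as deposited, 258 with no filter, 288 with upper-quartile scaling, 306 with a pseudocount of 0.1, 16 with the adult collagen covariate and 63 to 674 with 1 library left out. Collagens called, 0 as reported, were 3 with values as deposited (col-80, col-142 and col-179) and 0 to 14 with 1 library left out, 14 only without replicate 1 of the reference strain. Of the other genes named, col-19 was called with values as deposited (limma adjusted p = 0.0478), and qua-1 (0.0402) and col-62 (0.0487) without replicate 1 of the reference strain. Collagens higher at an unadjusted p below 0.05, 33 as reported, were 2 with the covariate and 7 to 39 with 1 library left out. The 7 were 5.74% against 4.37% of all genes, without replicate 3 of the ptr-8 strain. The 39 were 32.0% against 13.2%, without replicate 1 of the reference strain. Collagens lower at that p, 18 as reported, were 4 with values as deposited, 10 with the covariate and 6 to 36 with 1 library left out (4.92% against 10.2% of all genes, and 29.5% against 13.4%). Where a library is left out, 1 arm has 2 samples. The strains share replicate numbers, and whether these pair the libraries is not known. Same-numbered deviations correlated at 0.249, 0.0474 and 0.0343 over all tested genes, and at 0.383, 0.171 and -0.319 over the collagens. With the replicate number as a block, 165 genes and 0 collagens were called, and 30 collagens were higher and 30 lower at an unadjusted p below 0.05, 24.6% each against 10.1% and 13.3% of all genes. Log2 differences that turned to the higher side with the covariate were sqt-2 at 0.071, rol-8 at 0.15, rol-6 at 0.057, sqt-1 at 0.037, col-117 at 0.0094, col-3 at 0.0035, lon-3 at 0.41, dpy-3 at 0.40, dpy-7 at 0.44, dpy-8 at 0.35 and blmp-1 at 0.10. With 1 library left out, lon-3 ran from -0.36 to 0.033 (above 0 without replicate 3 of the reference strain, at 0.028, or replicate 1 of the ptr-8 strain), dpy-3 from -0.50 to 0.065 (the latter library) and emb-9 from -0.17 to 0.023 (the former), and emb-9 was at 0.045 with values as deposited. The cause was not tested.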
